A study of Mus musculus with 9 samples.

Results

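Podoplanin (Pdpn), the tetraspanin Cd9, reelin (Reln) and fibrinogen-like protein 2 (Fgl2) encode surface and secreted proteins that are used as markers of lymphatic endothelium. They were taken by gene symbol from a table of read counts, in which they are 4 of 23018 genes, and each symbol matched 1 row. The table comes from lymphatic endothelial cells (LECs) of 3 origins, meninges, diaphragm and skin, sorted from male C57BL/6 mice that were wild type, untreated and 10 weeks old. Each origin has 3 libraries, 9 in all. The sort kept cells that lacked the leukocyte antigen CD45 and carried CD31 and podoplanin, so the podoplanin protein was itself a criterion of entry and its transcript is no independent check of identity. The labels do not say how many animals went into a library, and p-values therefore measure only the spread between these libraries.

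Lymphatic endothelium carries fluid and cells out of tissues, and lymphatic vessels lie in the dural layer of the meninges as well as in peripheral organs. Podoplanin is a mucin-type glycoprotein of the plasma membrane. By binding the platelet receptor CLEC-2, it keeps blood and lymphatic vessels apart during development. CD9 is a tetraspanin, a protein that spans the membrane several times and gathers integrins and other partners into membrane domains. Reelin is a very large secreted glycoprotein, best known for positioning neurons in the developing brain through the receptors ApoER2 (Lrp8) and VLDLR. Lymphatic endothelium also secretes it, and mice without reelin have abnormal collecting lymphatic vessels. FGL2 belongs to the fibrinogen family. In its membrane form it can cleave prothrombin, and in its secreted form it dampens immune cells through Fc gamma receptors.

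Total counts per library ran from 26075366 to 34592850, and edgeR tested 14831 genes. Prox1, the transcription factor that defines lymphatic endothelium, had between 22929 and 56461 counts in each library. Its level was lowest in Meninges replicate 2, at 716 CPM (CPM stands for counts scaled to a common library size with TMM factors), against 1212 to 1332 CPM in the other 2 meningeal libraries, 1666 to 2022 CPM in diaphragm and 1799 to 2042 CPM in skin. Fibroblast markers summed to 1515, 8576 and 8375 CPM in Meninges replicates 1 to 3, against 726 to 1570 CPM in diaphragm and 121 to 1169 CPM in skin. Bone and cartilage markers summed to 184 to 992 CPM in meninges and to at most 37.4 CPM elsewhere. Mesothelial markers summed to at most 10.2 CPM in meninges, to 1194, 45.8 and 86.3 CPM in Diaphragm replicates 1 to 3, and to 0 CPM in skin. Muscle markers summed to 17.2 to 35.9 CPM in meninges, 391 to 929 CPM in diaphragm and 81.2 to 269 CPM in skin. Because Prox1 and these markers moved with the tissue, the members are also given relative to Prox1 below, and the part of other cells in their differences was not tested. In sorted bulk samples, fewer cells of a type and less RNA per cell cannot be told apart.

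The 250 bases before the start of Fgl2 and of Cd9 are shown because these are the members whose levels differed by the test. They come from RefSeq (GRCm38.p6), and lie at chr5:21372423-21372672 on the plus strand for Fgl2 and at chr6:125494761-125495010 on the minus strand for Cd9. Capitals mark the motifs that were searched on both strands and found, which are the GC box GGGCGG and the AP-1 site TGAGTCA. The TATA box TATAAA and the E-box CACGTG were searched too and matched neither.
Fgl2: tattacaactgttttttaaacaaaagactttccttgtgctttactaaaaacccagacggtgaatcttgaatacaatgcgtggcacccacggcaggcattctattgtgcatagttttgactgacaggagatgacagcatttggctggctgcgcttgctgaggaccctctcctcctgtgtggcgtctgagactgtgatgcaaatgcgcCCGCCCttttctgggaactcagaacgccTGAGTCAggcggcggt
Cd9: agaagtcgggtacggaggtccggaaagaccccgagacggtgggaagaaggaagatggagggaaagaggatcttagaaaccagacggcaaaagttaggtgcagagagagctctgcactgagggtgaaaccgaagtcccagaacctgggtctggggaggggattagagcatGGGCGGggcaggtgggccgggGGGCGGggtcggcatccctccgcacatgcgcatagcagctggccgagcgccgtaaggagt
The Fgl2 window held 1 GC box, 44 bases before the start on the opposite strand, and 1 AP-1 site 16 bases before it. The Cd9 window held 2 GC boxes, 81 and 60 bases before the start. The matches did not overlap each other. Of 32536 windows of this length, 33.0% held a GC box and 4.45% an AP-1 site. Fgl2 had 10 CpG and Cd9 had 16 CpG in the window, against a median of 6 over all windows. The windows of the other two genes differed in composition, with 37 CpG and 6 GC boxes for Reln, and 2 CpG and no GC box for Pdpn. These matches describe letters only, and binding was not measured.

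Of the surface proteins, podoplanin had mean transcript levels that differed by less than the spread inside each tissue. Pdpn stood at 183, 90.3 and 152 CPM in Meninges replicates 1 to 3. It had 84.3, 159 and 237 CPM in the diaphragm libraries and 117, 172 and 191 CPM in the skin libraries. The 3 tissues overlapped, and the spread was widest in diaphragm, where the highest library had 2.81 times the lowest. Mesothelial cells carry podoplanin too, and the lowest Pdpn level, in Diaphragm replicate 1, stood beside the highest mesothelial sum. The part of these cells was not tested. The means were 142 ± 47.3 CPM in meninges, 160 ± 76.2 CPM in diaphragm and 160 ± 38.5 CPM in skin (± SD of 3 libraries). The log2 fold change of meninges over diaphragm was -0.17 (standard error, SE, 0.46 and edgeR adjusted p = 0.978), and that of meninges over skin was -0.17 (SE 0.46, edgeR adjusted p = 0.942). The 95% interval of the meninges to diaphragm ratio ran from 0.447 to 1.76. Between diaphragm and skin the log2 fold change was -0.002 (edgeR adjusted p = 1, 95% interval -0.99 to 0.99).

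**Figure D1:**
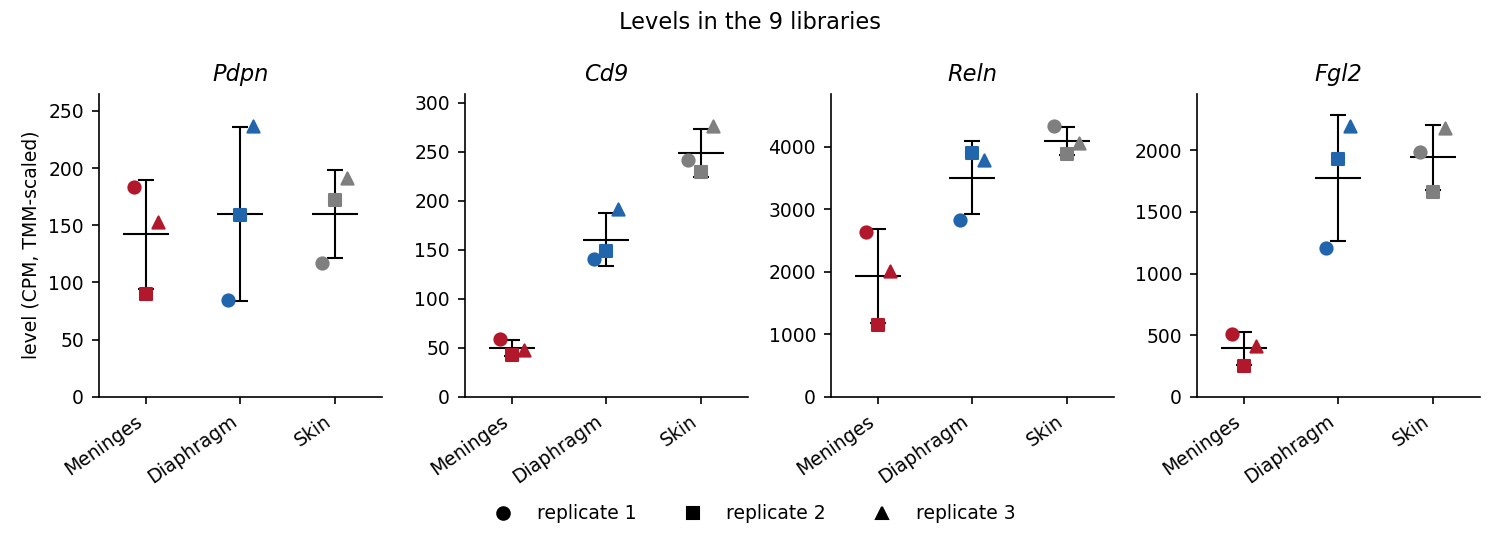
Level of each gene in CPM (linear axis from 0) in the meningeal, diaphragm and skin libraries, 1 point per library whose shape marks its replicate number, and bars for the mean with the SD over the libraries. Cd9 and Fgl2 are lower in all 3 meningeal libraries than in any other library, while Pdpn overlaps across the tissues.

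Cd9 had its lowest level in meninges and its highest in skin, with diaphragm between them. It had 58.7, 42.8 and 47.9 CPM in the meningeal libraries. Diaphragm libraries had 141, 149 and 191 CPM, and skin libraries had 242, 229 and 276 CPM. No pair of tissues overlapped. Diaphragm libraries lay wholly below skin libraries for 5.95% of all genes. Means were 49.8 ± 8.12 CPM in meninges, 160 ± 27.1 CPM in diaphragm and 249 ± 24.4 CPM in skin (± SD of 3 libraries). Cd9 was 4.999-fold lower in meninges than in skin (-2.32 on the log2 scale, SE 0.38, edgeR adjusted p = 0.0103). Against diaphragm its level in meninges was lower by a log2 fold change of -1.69 (SE 0.38), which did not pass after adjustment over all genes (edgeR adjusted p = 0.0976, unadjusted p = 0.000551). The neighbouring step, diaphragm over skin, had a log2 fold change of -0.64 (SE 0.37, edgeR adjusted p = 0.531, 95% interval -1.42 to 0.15). The DESeq2 Wald test called Cd9 lower in meninges than in diaphragm (DESeq2 adjusted p = 4.13e-08). The call against skin was lost without Meninges replicate 3 (log2 fold change -2.30, edgeR adjusted p = 0.0561).

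CD9 is also abundant on platelets and keratinocytes, so the markers of those cells are given beside it. Platelet markers summed to 19.9 to 43.4 CPM in meninges, 34.8 to 210 CPM in diaphragm and 0.0457 to 4.26 CPM in skin, where Cd9 was highest. Keratinocyte markers summed to 2.54, 61.4 and 30.3 CPM in the meningeal libraries. Diaphragm libraries had 10.1, 2.31 and 7.02 CPM of them, and skin libraries had 0.0387, 366 and 10.1 CPM. In Skin replicate 1, 6 of 7 keratinocyte markers in the table and 6 of 8 platelet markers had no count, and Cd9 stood at 242 CPM. The part of other cells in the Cd9 levels was not tested.

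Of the secreted proteins, reelin took the most counts of the 4 and has the longest transcript. Reln had between 36569 and 112031 counts in a library, which is 0.138% to 0.399% of all counts. Its level was 2638, 1143 and 2013 CPM in the meningeal libraries. In diaphragm it was 2833, 3899 and 3784 CPM, and in skin 4336, 3889 and 4057 CPM. Every meningeal library lay below every diaphragm and skin library, by a narrow margin in the case of Meninges replicate 1 and Diaphragm replicate 1, while diaphragm and skin overlapped. Means were 1931 ± 751 CPM in meninges, 3505 ± 585 CPM in diaphragm and 4094 ± 225 CPM in skin (± SD of 3 libraries). The log2 fold change was -0.86 for meninges over diaphragm (SE 0.28, edgeR adjusted p = 0.314) and -1.08 for meninges over skin (SE 0.28, edgeR adjusted p = 0.0788), and neither passed. For diaphragm over skin it was -0.22 (SE 0.27, edgeR adjusted p = 0.833). limma voom, run with quality weights for the libraries, called Reln lower in meninges in both comparisons (limma adjusted p = 0.0179 against diaphragm and 0.00469 against skin). The edgeR fit without Meninges replicate 1 called it against skin (log2 fold change -1.38, edgeR adjusted p = 0.0222).

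Fgl2 was lower in meninges than in both other tissues. It had 514, 253 and 413 CPM in the meningeal libraries. Diaphragm libraries had 1209, 1928 and 2196 CPM, and skin libraries had 1985, 1662 and 2177 CPM. The highest meningeal library was 2.35 times below the lowest diaphragm library, and diaphragm and skin overlapped. Means were 393 ± 132 CPM in meninges, 1778 ± 510 CPM in diaphragm and 1941 ± 260 CPM in skin (± SD of 3 libraries). Fgl2 was 4.52-fold lower in meninges than in diaphragm (-2.18 on the log2 scale, SE 0.32, edgeR adjusted p = 0.0097). It was 4.94-fold lower in meninges than in skin (-2.30 on the log2 scale, SE 0.32, edgeR adjusted p = 0.00373). By unadjusted p these were the 13th and 22nd smallest of 14831 genes. Leaving out any 1 of the 9 libraries kept both calls. For diaphragm over skin the log2 fold change was -0.13 (95% interval -0.78 to 0.53, edgeR adjusted p = 0.937).

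Fgl2 is made by macrophages and T cells too, so leukocyte markers are given beside it. They summed to 18.7 to 82.2 CPM in meninges, 72.8 to 126 CPM in diaphragm and 0.426 to 36.0 CPM in skin. In Skin replicate 1, 10 of 15 leukocyte markers had no count, Ptprc (CD45) and Cd68 among them, and Fgl2 stood at 1985 CPM. Ptprc stood at 118 CPM in Diaphragm replicate 2 and 0.0369 CPM in Diaphragm replicate 1. Cd68 went the other way, at 6.29 and 32.3 CPM in the same order, and the leukocyte sums were 126 and 92.4 CPM. Without Diaphragm replicate 2 the log2 fold change of Fgl2 for meninges over diaphragm was -2.14 (edgeR adjusted p = 0.0397). Without Diaphragm replicate 1 it was -2.39 (edgeR adjusted p = 0.00585). The part of leukocytes in the Fgl2 levels was not tested.

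**Figure D2:**
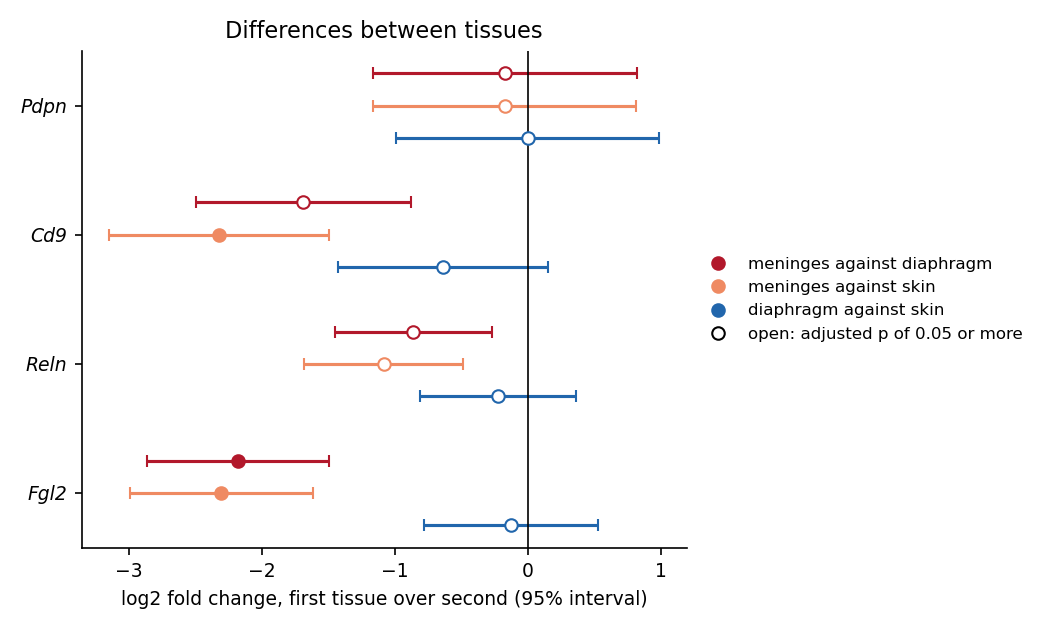
Log2 fold change of each gene in the 3 comparisons from the edgeR fit of all 9 libraries, first tissue over second, with 95% intervals as bars. Filled points passed at an adjusted p under 0.05, and these are Fgl2 in both meningeal comparisons and Cd9 in meninges against skin.

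Counted together, 1 of the 4 genes was called in meninges against diaphragm and 2 of 4 in meninges against skin, all of them lower in meninges. Over all genes, 0.175% were called lower in meninges than in diaphragm and 0.573% lower than in skin (0.344% and 1.32% in either direction, and 0.169% and 0.748% higher). None of the 4 was called between diaphragm and skin, where 0.0405% of genes were (0.0337% higher in diaphragm, 0.00674% lower), and none had an unadjusted p under 0.05 there in edgeR or was called by DESeq2 or limma voom. Meningeal libraries lay wholly below diaphragm libraries for 3 of the 4, which holds for 6.7% of all genes, and below skin libraries for the same 3, against 7.34% of all genes. On the CPM scale no member had all its libraries of the first tissue above those of the second, which held for 10.4% of genes in meninges against diaphragm, 12.9% in meninges against skin and 7.54% in diaphragm against skin. By DESeq2, 2 of the 4 were called in each meningeal comparison, and by limma voom 2 against diaphragm and 3 against skin. Over all genes with an adjusted p, DESeq2 called 6.15% in meninges against diaphragm, 9.5% in meninges against skin and 7.07% in diaphragm against skin, and limma voom 1.35%, 2.79% and 0.00674%. An unadjusted edgeR p under 0.05 was reached by 10.1%, 13.8% and 11.8% of all genes in the same order. These shares are the background of the counts given for the gene lists below. The median log2 fold change of the 4 was -1.27 for meninges over diaphragm and -1.69 for meninges over skin, beside medians of 0.05 and 0.08 over all genes tested. The meningeal comparisons share their meningeal libraries and are not independent of each other.

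Levels of different genes are compared here per kilobase of exon, from GENCODE M21 lengths of 1817 bases for Pdpn, 2044 for Cd9, 23738 for Reln and 3788 for Fgl2. On this scale Fgl2 had the highest mean level of the 4 in every tissue, at 104 ± 34.7 CPM per kilobase in meninges, 469 ± 135 in diaphragm and 512 ± 68.7 in skin. It ranked between 86th and 255th of 22906 genes in the meningeal libraries, 21st to 31st in diaphragm and 24th to 27th in skin. Reln followed in diaphragm and skin, at 148 ± 24.6 CPM per kilobase in diaphragm and 172 ± 9.50 in skin, and had 81.4 ± 31.6 in meninges, where it overlapped Fgl2. Pdpn, at 78.1 ± 26.1 CPM per kilobase in meninges, was within the spread of Reln there, and in diaphragm its 88.0 ± 42.0 overlapped the 78.4 ± 13.2 of Cd9. Cd9 was last in meninges at 24.4 ± 3.97 CPM per kilobase and ranked between 926th and 1592nd there, against 122nd to 136th in skin (all ± SD of 3 libraries). In skin its mean level of 122 ± 11.9 CPM per kilobase stood above the 88.1 ± 21.2 of Pdpn, without overlap. 

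Relative to Prox1 counts of the same library, a ratio chosen with the levels known, Fgl2 and Cd9 stayed lower in meninges, Reln overlapped diaphragm, and Pdpn was higher. Fgl2 had 38.6, 35.3 and 34.1 counts per 100 Prox1 counts in meninges, against 72.6, 111 and 109 in diaphragm and 97.2, 92.4 and 112 in skin. The meningeal libraries, which spanned 2.03 times in Fgl2 CPM, spanned 1.13 times on this scale, and all lay below the others. Cd9 had 4.41, 5.97 and 3.96 counts per 100 Prox1 counts in meninges, against 8.44, 8.56 and 9.45 in diaphragm and 11.8, 12.7 and 14.2 in skin, with no overlap between any pair of tissues. Reln had 198, 159 and 166 counts per 100 Prox1 counts in meninges and 170, 224 and 187 in diaphragm, which overlapped, and 212, 216 and 208 in skin, which lay above meninges. Pdpn had 13.8, 12.6 and 12.6 counts per 100 Prox1 counts in meninges, above each of the 5.06, 9.11 and 11.7 in diaphragm and the 5.73, 9.58 and 9.81 in skin. Of all other genes tested, 20.2% lay wholly higher in meninges than in diaphragm on this scale and 24% wholly higher than in skin, so the placing of Pdpn was a common one. Wholly lower in meninges were 2.47% against diaphragm and 2.48% against skin. Between diaphragm and skin 8.02% were wholly higher in diaphragm and 5.26% wholly lower, as Cd9 was. With 3 libraries against 3 no exact permutation test could reach a two-sided p under 0.05, so these ratios are given as descriptions. Fibroblasts and bone-forming cells can carry podoplanin as well. Bone markers were higher in all 3 meningeal libraries than elsewhere, and fibroblast markers in Meninges replicates 2 and 3. Their part in the ratio was not tested.

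**Figure D3:**
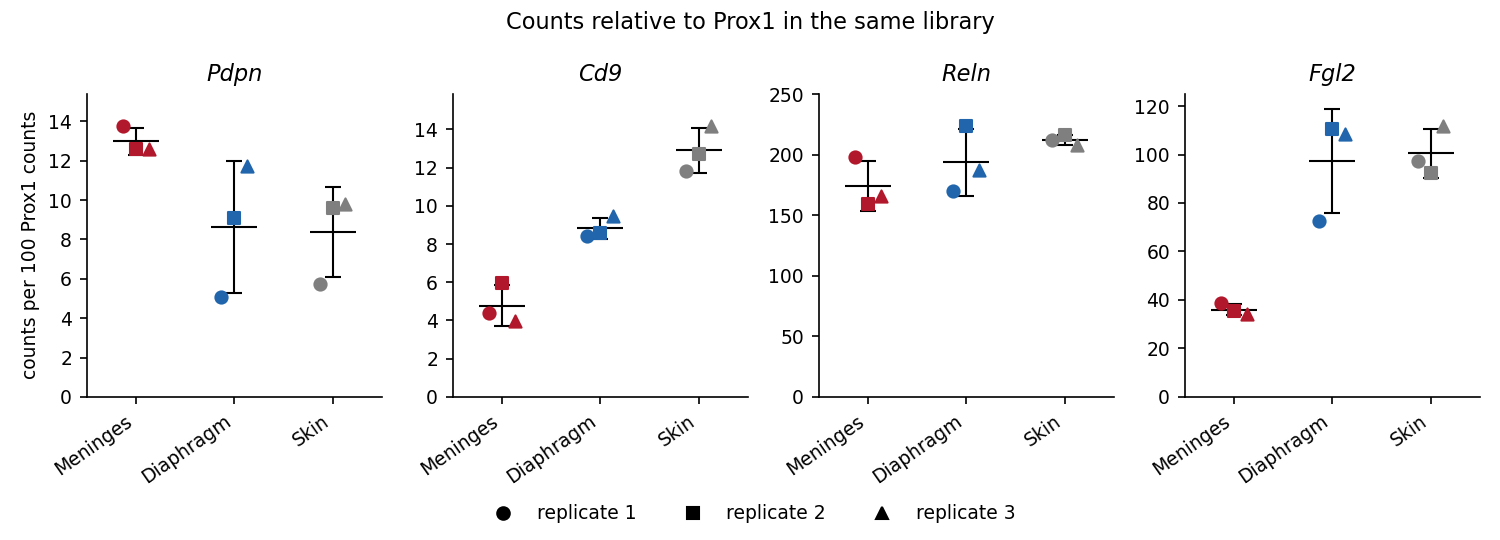
Counts of each gene per 100 Prox1 counts of the same library (linear axis from 0), with 1 point per library and bars for the mean with the SD over the libraries. Fgl2 and Cd9 stay lower in meninges than in diaphragm and skin, Reln overlaps between meninges and diaphragm, and Pdpn is higher in the 3 meningeal libraries.

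An edgeR fit scaled so that the geometric mean of Prox1, Flt4, Cdh5 and Pecam1 was equal in all libraries raised the median log2 fold change of all genes by 0.66 for meninges over diaphragm and by 0.80 for meninges over skin. Fgl2 stayed called against skin (log2 fold change -1.65, edgeR adjusted p = 0.0309) and not against diaphragm (log2 fold change -1.67, edgeR adjusted p = 0.0617). Cd9 was no longer called against skin (log2 fold change -1.56, edgeR adjusted p = 0.15), and over diaphragm it was at -1.08 (edgeR adjusted p = 0.397). Reln was at -0.38 over diaphragm (edgeR adjusted p = 0.657) and -0.46 over skin (edgeR adjusted p = 0.443). Pdpn turned to the higher side in meninges, at 0.33 over diaphragm and 0.48 over skin, neither past the test. Relative to the median of all genes in that fit, Pdpn was at -0.37 over diaphragm and -0.40 over skin, Cd9 at -1.79 and -2.44, Reln at -1.09 and -1.34, and Fgl2 at -2.38 and -2.53.

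**Figure D4:**
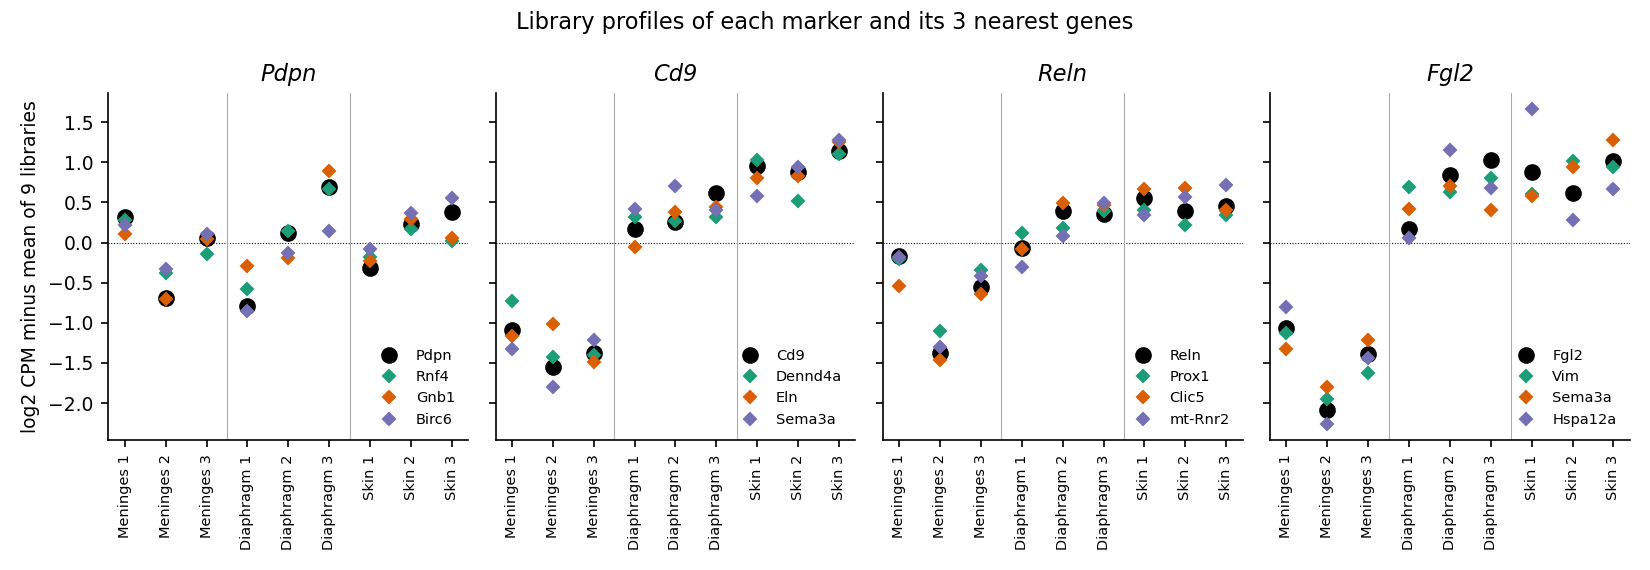
Log2 CPM of each marker and of its 3 nearest genes in the 9 libraries, each gene centred on its own mean over the libraries, with the marker as black circles, the other genes as coloured diamonds and vertical lines between tissues. Reln and Prox1 overlie closely, with their lowest values in Meninges replicate 2.

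The genes whose library profiles lay nearest to each marker were found among 8978 genes whose average log2 CPM was 3 or more, by the root mean square difference of centred log2 CPM over the 9 libraries. Prox1 itself was nearest to Reln, with a difference of 0.17, followed by the chloride channel family gene Clic5 (0.18) and the mitochondrial ribosomal RNA mt-Rnr2 (0.20). Together, the 2 ribosomal RNAs of mitochondria made up a mean share of counts of 17.3% (SD 6.13) for meninges, 23.8% (SD 4.98) for diaphragm and 29.4% (SD 2.08) for skin. An edgeR fit without them put Reln in meninges at -0.86 over diaphragm (edgeR adjusted p = 0.302). Over skin it was at -1.09 (edgeR adjusted p = 0.0707). The cause of the likeness between the Reln and mt-Rnr2 profiles was not tested. Fgl2 lay nearest to vimentin (Vim, 0.28), an intermediate filament gene at 288 ± 84 CPM in meninges, 1364 ± 82 CPM in diaphragm and 1515 ± 225 CPM in skin. Of the other genes outside the 4, the guidance cue Sema3a (0.316) and Hspa12a (0.364) were nearest. Cd9, left out of this order like the other markers, stood at 0.315 from Fgl2, between Vim and Sema3a. Cd9 lay nearest to Dennd4a (0.21), to elastin (Eln, 0.22) and to Sema3a (0.26). Elastin stood at 74.4 ± 12.1 CPM in meninges, 208 ± 37 CPM in diaphragm and 339 ± 62 CPM in skin. Pdpn was nearest to Rnf4 (0.20), Gnb1 (0.25) and Birc6 (0.26), and stood 0.96 from Cd9 and 1.03 from Fgl2.

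None of the partners of podoplanin passed the test. CLEC-2 (Clec1b), its platelet receptor, was at most 19.1 CPM, in Diaphragm replicate 1. Of 14 partner and glycosylation genes, all tested, none was called by edgeR in any comparison, with 2, 1 and 0 at an unadjusted p under 0.05 in meninges against diaphragm, meninges against skin and diaphragm against skin. DESeq2 called 0, 1 and 0 of them, and limma voom 1, 0 and 0. Moesin (Msn), which links podoplanin to actin, was among the members with the highest average log2 CPM. Msn had 821 ± 193 CPM in meninges, 1463 ± 279 CPM in diaphragm and 1094 ± 32 CPM in skin (± SD of 3 libraries).

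The receptors of reelin were low next to the ligand. Vldlr and Lrp8, picked for their role after their values were seen, reached at most 64.0 and 20.9 CPM in any library, and the adaptor Dab1 had 5 counts over the 9 libraries together. Of 15 tested of 16 receptor and signalling genes, edgeR called none, with 1 in each comparison at an unadjusted p under 0.05, DESeq2 called 1, 0 and 0, and limma voom none. Among the members with the highest average log2 CPM, the kinase subunit gene Pik3r1 stood at 342 ± 191 CPM in meninges, 153 ± 85 CPM in diaphragm and 90.5 ± 22.2 CPM in skin. Pafah1b1 and Gsk3b averaged between 199 and 326 CPM in the 3 tissues. Of the 7 genes of a list of proteases of the reelin-cleaving ADAMTS family, tissue plasminogen activator or proprotein convertases, 1 was higher in meninges than in skin. This was Adamts2, also a procollagen protease, at 42.5, 345 and 309 CPM in the meningeal libraries, against 1.93, 1.54 and 0 CPM in skin (7.63 on the log2 scale, SE 1.58, edgeR adjusted p = 0.0303). Its high libraries, Meninges replicates 2 and 3, are those with the highest fibroblast sums, whose part was not tested. edgeR called none of the 7 in the other comparisons. An unadjusted p under 0.05 was reached by 2 against diaphragm, 2 against skin and 0 between diaphragm and skin. DESeq2 called 2, 2 and 0 in the same order, all higher in meninges, and limma voom none. The median log2 fold change of the 7 was 0.58 for meninges over diaphragm and 0.73 over skin. Adamts5 averaged 49.4 ± 5.7 CPM in meninges, 103 ± 67 CPM in diaphragm and 99.1 ± 53.1 CPM in skin, and Pcsk6 106 ± 43, 142 ± 90 and 181 ± 28 CPM.

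Among relatives of FGL2 with a fibrinogen domain, Tnxb (tenascin-X) was the only gene called by edgeR of 10 tested from 20 listed. It had 42.3, 34.5 and 17.3 CPM in meninges, 472, 375 and 545 CPM in diaphragm and 846, 425 and 507 CPM in skin. Tnxb was lower in meninges than in diaphragm (-3.89 on the log2 scale, SE 0.44, edgeR adjusted p = 0.00154) and than in skin (-4.24, SE 0.45, edgeR adjusted p = 0.000852). The median log2 fold change of the 10 was 1.07 for meninges over diaphragm and 0.63 for meninges over skin. In each of these comparisons, DESeq2 and limma voom both called 2 of the 10 higher in meninges and 1 lower. An unadjusted edgeR p under 0.05 was reached by 5 of the 10 in each. Angpt2, which encodes a ligand of the TIE2 receptor, averaged 369 ± 107 CPM in meninges, 132 ± 68 CPM in diaphragm and 135 ± 108 CPM in skin. Mfap4, a microfibril protein, had 160, 430 and 800 CPM in meninges and at most 13.8 CPM elsewhere, without passing (edgeR adjusted p = 0.21 against diaphragm and 0.0616 against skin). Its higher meningeal libraries, replicates 2 and 3, also had the highest fibroblast sums, and the part of fibroblasts was not tested. The closest relative, Fgl1, had 3 counts in all.

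Of 12 tested genes for FGL2 receptors and coagulation control, 1 was called, against skin. Against diaphragm none was, with 1 at an unadjusted p under 0.05 and 0 by DESeq2 and by limma voom. Against skin 2 had an unadjusted edgeR p under 0.05, and DESeq2 and limma voom each called 2 higher in meninges. Between diaphragm and skin 1 had an unadjusted edgeR p under 0.05. There DESeq2 called 1 higher in diaphragm, and edgeR and limma voom called 0. Coagulation factor V (F5) had 35.6, 14.1 and 6.90 CPM in meninges and no count in skin (edgeR adjusted p = 0.0445 against skin). With the libraries of each tissue pooled, F5 was at least 438-fold higher in meninges against a floor of 3 counts over the skin libraries. This bound covers counting error only, not the spread between libraries. The means of F5 were 18.9 ± 14.9 CPM in meninges and 17.9 ± 15.4 CPM in diaphragm (edgeR adjusted p = 0.998). Thrombomodulin (Thbd), a surface anticoagulant, held 375 ± 112 CPM in meninges, 369 ± 96 CPM in diaphragm and 312 ± 91 CPM in skin. Multimerin 1 (Mmrn1), which binds factor V and marks lymphatic endothelium, held 3235 ± 1279, 4717 ± 969 and 4657 ± 249 CPM. Factor VIII (F8) had 759, 235 and 518 CPM in meninges, against 133, 84.5 and 86.6 CPM in diaphragm and 5.34, 29.1 and 127 CPM in skin. Every meningeal library lay above every other library for F8, but it did not pass (edgeR adjusted p = 0.342 against diaphragm and 0.0881 against skin).

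Of the other tetraspanins, none passed the test. Of 22 tested from 28 listed, edgeR called none in any comparison, with 0, 6 and 2 at an unadjusted p under 0.05 in meninges against diaphragm, meninges against skin and diaphragm against skin. DESeq2 called 0, 4 and 2 of the 22, all higher in the first tissue, beside 6.15%, 9.5% and 7.07% of all genes, and limma voom 0, 1 and 0. Their median log2 fold change was -0.09, 0.37 and 0.14 in the same order. The close relative Cd81 had its highest mean in meninges, at 269 ± 40 CPM in meninges, 128 ± 46 CPM in diaphragm and 60.4 ± 38.4 CPM in skin (meninges over skin 2.15, SE 0.53, edgeR adjusted p = 0.0675). Tspan13 had 162 ± 35 CPM in meninges, 171 ± 41 CPM in diaphragm and 45.6 ± 7.85 CPM in skin, and Tspan18 501 ± 80, 331 ± 116 and 341 ± 39 CPM.

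Of 13 tested genes on a list of CD9 partners and endothelial adhesion genes, 1 was called, against skin. Against diaphragm none was, with 3 at an unadjusted p under 0.05 and 0 by DESeq2 and by limma voom. Against skin 5 had an unadjusted edgeR p under 0.05, and DESeq2 and limma voom each called 2 lower in meninges. Between diaphragm and skin 4 had an unadjusted edgeR p under 0.05, and edgeR, DESeq2 and limma voom called 0. Endomucin (Emcn), an endothelial sialomucin listed as an adhesion gene, was lower in meninges than in skin, at 135, 47.5 and 74.0 CPM in meninges against 374, 318 and 319 CPM in skin (-1.98 on the log2 scale, SE 0.42, edgeR adjusted p = 0.0343). In diaphragm it had 206, 168 and 167 CPM, between the others as Cd9 was. As Emcn is an endothelial gene, blood endothelial markers are given beside it. Emcn is itself 1 of the 12 markers on that list, so their sums and calls include it. These markers summed to 1012 to 2264 CPM in meninges, 1400 to 2136 CPM in diaphragm and 1416 to 1475 CPM in skin. No count was found for 5, 4 and 4 of the 12 in Skin replicates 1 to 3. In Meninges replicates 1 to 3 this held for 0, 1 and 1, and in Diaphragm replicates 1 to 3 for 0, 2 and 2. For meninges over skin, edgeR called 4 of the 11 tested up and 2 down, Emcn among those down (median log2 fold change 4.32). Over diaphragm it called 1 up and 1 down (median 0.34). The part of blood endothelium in the Emcn and Cd9 levels was not tested. The integrin subunit genes Itga6 and Itgb1, whose products form complexes with CD9, averaged 112 ± 56 and 482 ± 186 CPM in meninges, 301 ± 60 and 610 ± 21 CPM in diaphragm and 372 ± 54 and 350 ± 77 CPM in skin. Ptgfrn, a direct CD9 partner, averaged 185 ± 84 CPM in meninges, 247 ± 89 CPM in diaphragm and 349 ± 98 CPM in skin. None of these 3 passed the edgeR test.

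**Figure D5:**
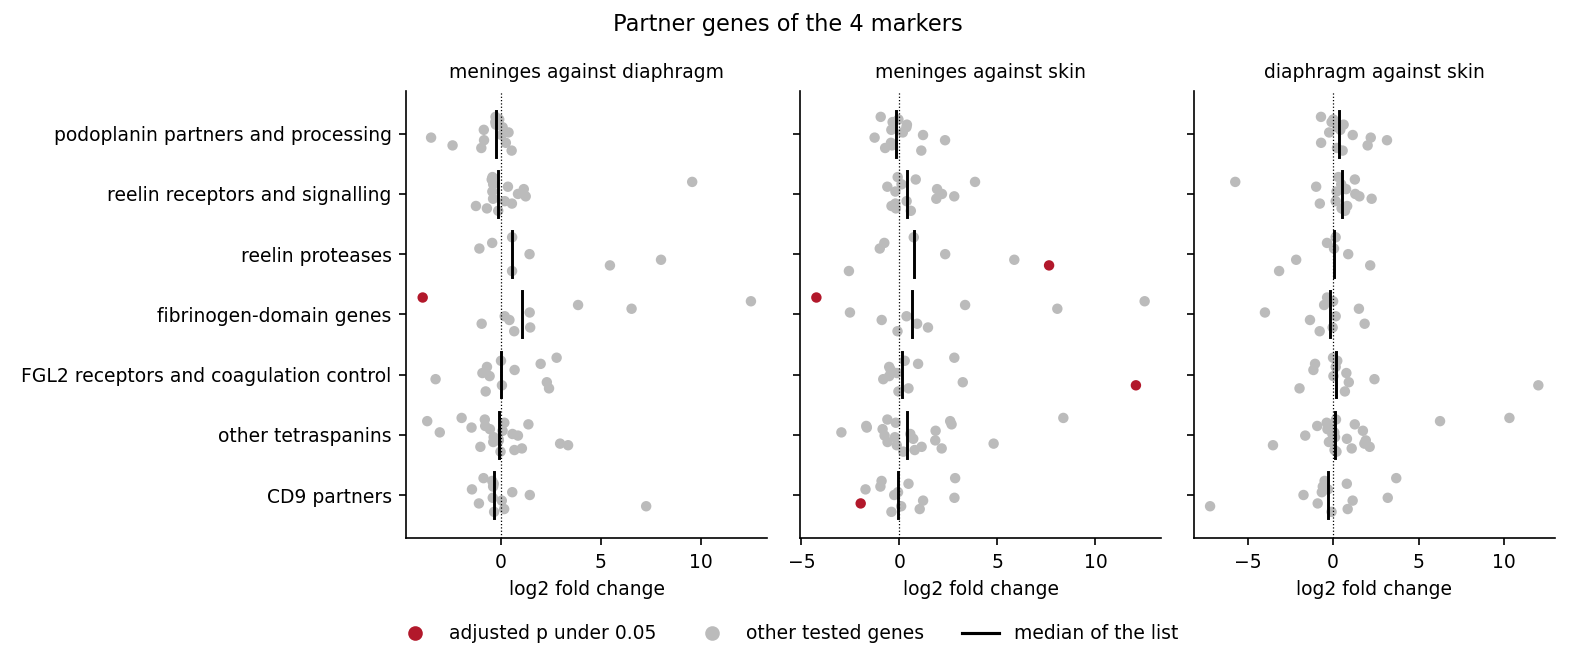
Log2 fold change, first tissue over second, of each tested partner gene in the 3 comparisons, by list, with the median of each list as a vertical bar. Red points passed at an edgeR adjusted p under 0.05, which are Tnxb in both meningeal comparisons, and Adamts2, F5 and Emcn in meninges against skin. The plotted value of F5 there is a fitted one against libraries without a count and is no measure of size.

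Of 19 other lymphatic markers, 0 were called against diaphragm (5 at an unadjusted p under 0.05, 1 by DESeq2 and 3 by limma voom). Against skin, the hyaluronan receptor Lyve1 was lower in meninges (log2 fold change -1.63, edgeR adjusted p = 0.0326) and the scavenger receptor Stab2 higher (6.21, edgeR adjusted p = 0.00186). In that comparison 10 had an unadjusted edgeR p under 0.05, and DESeq2 and limma voom called 4 each. The log2 fold change over skin was negative for 15 and positive for 4, and over diaphragm negative for 13 and positive for 6. The median log2 fold change of the 19 was -0.15 against diaphragm and -0.53 against skin, and their summed level was 8521 to 18572 CPM in meninges, 15163 to 20240 CPM in diaphragm and 19555 to 20779 CPM in skin.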

How the data were processed

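RNA from sorted LECs was amplified with the NuGEN Ovation RNA-Seq V2 kit. The deposited values are raw read counts per gene, and FastQC, STAR, HTSeq and mm9 are named in the submitters' processing notes, without versions or strand setting. Reads of overlapping or antisense genes therefore cannot be told apart. Totals were 26075366 to 34592850 counts, and no column belonged to other samples (0).

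edgeR 4.0.16 (R 4.3.3) was run on all 9 libraries with TMM scaling, its default expression filter (14831 genes kept) and the quasi-likelihood test. P-values were adjusted over all tested genes by Benjamini-Hochberg, with a threshold of 0.05. Standard errors are the log2 fold change divided by the square root of F, and intervals are 95% intervals. Profile likeness used log2 CPM with a prior count of 2. Floors of 3 counts over a group cover counting error only. DESeq2 1.42.0, limma 3.58.1 (voom with quality weights, written limma voom here), other scalings and filters, a robust fit, a replicate block, pairs of tissues alone and each library left out were alternatives. The fitting step was tested on simulated data. Figures used matplotlib 3.10.9.

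The 4 genes and the gene lists were chosen with earlier results of these data known. Named partners are every called member of a list, up to 4, and its 3 members with the highest average log2 CPM. Vldlr, Lrp8, Clec1b, Dab1 and Fgl1 were named outside this rule. Some named partners are not reported here. Whether library numbers pair the samples is not known, and the main fit did not pair them. Same-numbered libraries of different tissues had correlations of deviations of -0.0205 to 0.0512, against -0.0565 to 0.0393 for other pairs. With 3 libraries a tissue and a wide spread between them, these values cannot exclude a pairing. Listed genes that are not in the table were not analysed here.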

Additional observations from a re-analysis of the deposited data

How the results depend on the processing

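Fgl2 was lower in meninges under every alternative, called against skin in all 21 and against diaphragm in 19 of 21. Its exceptions against diaphragm were the scaling to 4 endothelial genes (-1.67, edgeR adjusted p = 0.0617) and Meninges replicate 1 as the only meningeal library (-1.79, edgeR adjusted p = 0.0748), whose lone library is assumed to vary like the others. Cd9 against skin was not called with the endothelial scaling (-1.56), with Meninges replicate 1 alone (-2.11) or without Meninges replicate 3 (-2.30), and leaving out 1 library gave -2.46 to -2.22. Cd9 against diaphragm was called by DESeq2 (-1.66). Reln was called against diaphragm by limma voom (-0.94) and with no filter (-0.85), and against skin by limma voom (-1.13), with no filter (-1.08), in the robust fit (-1.08) and without Meninges replicate 1 (-1.38), with -1.38 to -0.82 over the libraries left out. Signs turned only in comparisons that never passed. Pdpn over diaphragm became 0.33 with the endothelial scaling and 0.19 with Meninges replicate 1 alone, and -0.48 to 0.23 with 1 library left out (positive without Diaphragm replicate 3, 0.23, or Meninges replicate 2, 0.07). Pdpn over skin became 0.48 and 0.17 in the same fits, and -0.40 to 0.067 with 1 left out (positive without Meninges replicate 2). For diaphragm over skin, Pdpn became 0.061 with limma voom, 0.0018 with upper-quartile factors and 0.14 with the endothelial scaling, and -0.40 to 0.30 with 1 left out (0.30 without Diaphragm replicate 1, 0.01 without Diaphragm replicate 2, 0.05 without Skin replicate 2, 0.14 without Skin replicate 3), and Fgl2 became 0.024 with the endothelial scaling and -0.31 to 0.087 with 1 left out (positive without Diaphragm replicate 1). The causes were not tested. With the replicate block, Fgl2 was at -2.20 over diaphragm and -2.32 over skin and no call of the 4 genes changed, while 70, 231 and 16 genes were called in meninges against diaphragm, meninges against skin and diaphragm against skin, beside 51, 196 and 6 without it. Over all alternatives these counts ran from 11 to 922, 58 to 1459 and 1 to 1060, the highest by DESeq2. The endothelial scaling called 33 higher and 11 lower over diaphragm, beside 25 and 26, and 177 and 25 over skin, beside 111 and 85.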
